A study of Mus musculus with 2 samples.

Results

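Malat1, Neat1 and Mir21a are genes of non-coding RNAs, and the ELF3 and NFKB2 regions that lie at their loci were taken from CUT&RUN peak lists of primary renal tubular epithelial cells from wild-type mice. The regions were chosen by position: every listed region that touched chr19:5823001-5922000, a 99 kb window for Malat1 and Neat1, or chr11:86455001-86595000, a 140 kb window for Mir21a and its host-side gene Vmp1, was included. These windows held 52 of the 82536 regions in both lists together, 27 of 68319 ELF3 regions and 25 of 14217 NFKB2 regions. The windows were picked with the widths and cover of these lists already known, so widths and cover are given here as descriptions.

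CUT&RUN cuts the DNA around an antibody-bound protein with a tethered nuclease and sequences what is released. The series has 1 ELF3 library and 1 NFKB2 library, named after the protein the antibody was raised to, both from kidney cells in primary culture, with the wild-type genotype, treated with TNFα and IFNγ, and carrying the label batch 1. The sources used here give no dose, duration, mouse age or number of mice, and neither library has an untreated counterpart here. Each antibody having a single library, no replicate error could be had and nothing was tested, and the 95% intervals below cover counting error only. Peak lists hold no expression values, so the labelled cell type was not checked against markers. Coordinates are 1-based and as deposited; they follow GRCm39 by the sequence names in the files, although the submitters' processing notes name mm10. A fragment count is the number of sequenced fragments over the summit, recovered from the deposited fold and −log10 p. The lowest background of each list, which measures depth as the fragments over an average base, was 1.22 for ELF3 and 1.36 for NFKB2. Ratios of NFKB2 to ELF3 fragments were scaled by the quotient of these depths, 1.11. They also carry the unknown efficiency of the antibodies.

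Malat1 and Neat1 are neighbouring genes whose long RNAs stay in the nucleus: Malat1 RNA gathers in nuclear speckles, and Neat1 RNA is the scaffold of paraspeckles. Mir21a encodes miR-21, a microRNA that represses target messages through its seed and is known in the kidney for its rise after injury and its part in fibrosis. It lies at the far end of Vmp1, which encodes a membrane protein of the endoplasmic reticulum needed for autophagy. ELF3 belongs to the ETS transcription factors and is found mainly in epithelia; ETS factors bind a GGAA core. NFKB2 encodes p100, the precursor of the p52 subunit of non-canonical NF-κB, which binds κB sites. TNFα is a classical activator of NF-κB.

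The gene products are shown by the letters that define them. The RefSeq tables (GRCm38.p6) hold both mature strands of Mir21a, on chromosome 11, minus strand; the seed, bases 2 to 8, is in capitals:
mmu-miR-21a-5p: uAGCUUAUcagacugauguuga
mmu-miR-21a-3p: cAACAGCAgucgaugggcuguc
Among 1679 mature miRNA names in that table, 1 other shared the seed of miR-21a-5p, mmu-miR-21c, and 0 others shared that of miR-21a-3p. The 92-base hairpin that carries them is printed with the mature strands in capitals.
Mir21a hairpin: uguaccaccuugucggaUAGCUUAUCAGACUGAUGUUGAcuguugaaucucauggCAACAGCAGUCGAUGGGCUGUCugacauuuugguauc

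Promoters from RefSeq (GRCm38.p6, 250 bases before to 50 after the start, gene strand) were found for Malat1, with 1 start, and Vmp1, with 3; Neat1 and Mir21a were named only. They are shown because both factors had regions in the windows of these genes, and each holds 1 copy of GGAAGT, a longer form of the ETS core GGAA, in capitals. The Malat1 promoter is on chromosome 19 and the Vmp1 promoter, the first of its 3, on chromosome 11, both on the minus strand:
Malat1: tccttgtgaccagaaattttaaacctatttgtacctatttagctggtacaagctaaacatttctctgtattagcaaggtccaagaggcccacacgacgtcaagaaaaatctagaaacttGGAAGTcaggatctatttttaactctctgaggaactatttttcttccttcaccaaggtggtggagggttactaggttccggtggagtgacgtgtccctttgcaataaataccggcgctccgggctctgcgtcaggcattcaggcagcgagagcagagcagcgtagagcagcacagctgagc
Vmp1: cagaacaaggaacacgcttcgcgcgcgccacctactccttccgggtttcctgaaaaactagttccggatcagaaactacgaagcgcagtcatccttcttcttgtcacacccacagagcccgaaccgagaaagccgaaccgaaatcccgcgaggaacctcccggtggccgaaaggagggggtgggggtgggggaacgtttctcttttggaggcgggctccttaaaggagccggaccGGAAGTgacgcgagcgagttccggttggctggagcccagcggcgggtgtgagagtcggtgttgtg
This GGAAGT began 131 bases before the Malat1 start and 15 bases before the Vmp1 start. GGAAGT, read on both strands, occurred in 23.8% of the 32851 promoters in the table. The other Vmp1 promoters did not hold it. The shorter GGAA, read on both strands, also occurs at other places in all 4 promoters and was not marked or counted. The κB consensus, found in 4.51% of all promoters, was in none of these 4 windows of 300 bases. These letters are a description of the windows, not of binding. Because the table and the lists are of unlike builds, no region was placed on a promoter.

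ELF3 and NFKB2 covered much of the Malat1 and Neat1 window. ELF3 had 7 regions covering 51.1 kb, or 51.6% of the window, and NFKB2 had 11 regions covering 39.4 kb, or 39.8%. NFKB2 also covered 77.1% of the ELF3 cover, against 14.3% over the whole lists. Of 26567 windows of 99 kb laid end to end over autosomes and the X chromosome, leaving out those that touch the locus, 9 had as much ELF3 cover, and none had as much NFKB2 cover, the highest being 29.2%. The mean window had 1.78% ELF3 and 0.273% NFKB2 cover. These windows take no account of unmappable sequence, and their fixed limits can split a cluster of regions that the locus window encloses. They still included the Mir21a and Vmp1 locus. Since the locus was picked with its cover known, its place among them is a description and no evidence that it is unusual. By number of regions the window stood out less for ELF3, since 2919 of the windows had 7 or more ELF3 regions, while 10 had 11 or more NFKB2 regions.

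**Figure D1:**
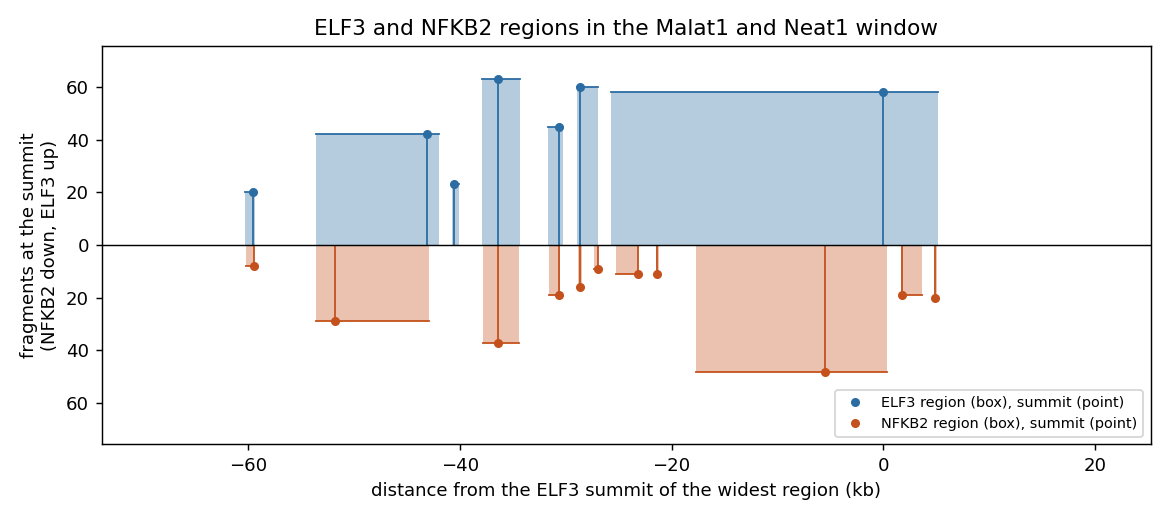
Regions of the Malat1 and Neat1 window, with distance from the ELF3 summit of the widest region on the x axis (kb) and fragments at the summit on the y axis, ELF3 upwards and NFKB2 downwards. Boxes span each region and points mark summits; the 30848 bp ELF3 region holds 5 NFKB2 regions, and the 11623 bp one holds 1.

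A pair of very wide ELF3 regions made up 83.2% of the ELF3 cover of this window. The lower lay at chr19:5843191-5854813 and spanned 11623 bp, with 42 fragments at its summit (30.3 to 56.8). The upper lay at chr19:5871088-5901935 and spanned 30848 bp, with 58 fragments (44.0 to 75.0). The upper one was the 8th widest of all 68319 ELF3 regions and the lower the 21st, while their fragment counts ranked 6128 and 12632. Both ranked far higher by width than by count. Regions of 10 kb or more were 0.0381% of ELF3 regions on autosomes and X. A gap of 16.3 kb separated the pair, and it held 4 narrower ELF3 regions.

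In the RefSeq table Malat1 comes below Neat1 on the chromosome. Malat1 is 6983 bp long and Neat1 20773 bp, with 22.0 kb between them and 49.8 kb from end to end. The wide regions, lower and narrower first, spanned 58.7 kb from end to end. The order and sizes are set side by side; which bases of each gene lie within the regions was not determined, for lack of an annotation of the files' build.

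NFKB2 filled most of both wide stretches. Over the lower one a single NFKB2 region, chr19:5843237-5853871, of 10635 bp and 29 fragments (19.4 to 41.6), covered 91.5% of the ELF3 region and began 46 bp inside it. Over the upper one 5 NFKB2 regions, split by gaps of 1064 to 3495 bp, covered 74.0%. The largest of these, chr19:5879065-5897146, of 18082 bp and 48 fragments (35.4 to 63.6), was the widest NFKB2 region on autosomes and X. The others were 2140, 238, 2030 and 327 bp wide, with 11, 11, 19 and 20 fragments. Only 2 ELF3 regions in the whole list held 5 or more NFKB2 regions, and 327 held 2 or more.

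The summits of both factors stood apart inside the wide regions. In the lower region the ELF3 summit lay 90.4% of the way to the upper end, and the NFKB2 summit 8.71 kb below it. In the upper region the ELF3 summit lay 83.3% of the way up and that of the largest NFKB2 region 5.54 kb below it. At its summit NFKB2 had 0.622 times the ELF3 signal in the lower region (0.374 to 1.02) and 0.745 times in the upper (0.498 to 1.11). Of all 13769 overlapping pairs in the lists, 82.8% and 88.8% had a lower ratio. These ratios set summits kilobases apart against each other, and their intervals reach 1.

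The narrower regions between and below the wide ones were mostly shared too. The tallest, chr19:5858926-5862472, was 3547 bp wide with 63 ELF3 fragments (48.4 to 80.6). NFKB2 covered 96.5% of it with 37 fragments (26.1 to 51.0), and the summits were 3 bp apart. At chr19:5865121-5866510 ELF3 had 45 fragments and NFKB2 19, again with summits 3 bp apart. At chr19:5867819-5869816 ELF3 had 60 fragments and NFKB2 a pair of regions, with 16 and 9. The lowest region, chr19:5836518-5837517, had 20 ELF3 and 8 NFKB2 fragments. Only chr19:5856106-5856770, of 665 bp and 23 ELF3 fragments, had no NFKB2 region. The NFKB2 ratio in these shared regions ran from 0.135 to 0.529, below the values at the strongest NFKB2 region of each wide stretch. The other NFKB2 regions of the upper wide stretch had ratios of 0.171 to 0.311, within that range. The interval of the 0.529 (0.343 to 0.806) also overlaps those of the strongest regions, so no higher ratio in wide regions is read from this.

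The longer Mir21a and Vmp1 window held more regions, with lower median widths than at Malat1 and Neat1. The medians were 1029 bp for ELF3 and 391 bp for NFKB2, against 1998 and 1114 bp there. In the whole lists they were 418 and 329 bp. Per Mb the window held 143 ELF3 and 100 NFKB2 regions, against 70.7 and 111 at Malat1 and Neat1. ELF3 had 20 regions covering 30.7 kb (21.9% of the window) and NFKB2 14 covering 17.6 kb (12.6%). Of 18787 other windows of 140 kb, 14 had as much ELF3 cover and 4 as much NFKB2 cover, and 26 and 5 had as many regions. They were laid in the same way and included the Malat1 and Neat1 locus, and this too is a description only. NFKB2 covered 57.3% of the ELF3 cover here. A single wide region gave 40.9% of the ELF3 cover and 61.9% of the NFKB2 cover.

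**Figure D2:**
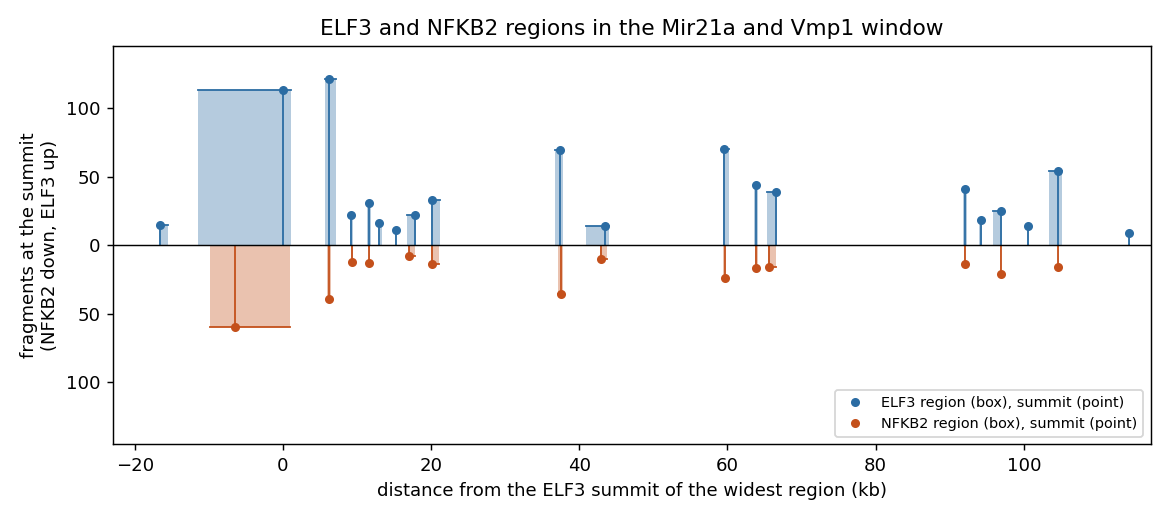
Regions of the Mir21a and Vmp1 window, drawn as distance from the ELF3 summit of the widest region (x axis, kb) against fragments at the summit (y axis), ELF3 upwards and NFKB2 downwards, with boxes for regions and points for summits. The wide region at the left has 113 ELF3 and 60 NFKB2 fragments, and its narrow neighbour 121 and 39.

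The wide region lay at the lower end of the window, chr11:86466495-86479037. ELF3 spanned 12543 bp with 113 fragments (93.1 to 136), the 18th widest region of its list. NFKB2 spanned 10902 bp within it, chr11:86468018-86478919, with 60 fragments (45.8 to 77.2), and covered 86.9% of its length. Among the 25 NFKB2 regions of both windows this was the one with most fragments, and it ranked 225 of 14217 in its list by that count. The ELF3 summit lay 91.0% of the way to the upper end, and the NFKB2 summit 6.47 kb below it. The ratio of NFKB2 to ELF3 was 0.478 (0.344 to 0.660), an interval below 1, unlike those of the wide Malat1 and Neat1 window regions; the difference between the loci was not tested. In the RefSeq table Mir21a lies within the span of Vmp1, 209 bp from its lower end, which is the 3′ end, since both are on the minus strand. Vmp1 spans 99979 bp there. Whether the wide region holds the hairpin shown above was not determined.

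The tallest ELF3 region of both windows stood next to it. At chr11:86483550-86485129 ELF3 had 121 fragments (100 to 145), 351st of its list, in 1580 bp. NFKB2 had 39 (27.7 to 53.3) in 421 bp, with summits 12 bp apart and a ratio of 0.290 (0.197 to 0.420). The wide region and this neighbour thus had ELF3 counts with overlapping intervals at very unlike widths.

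Further up, 4 ELF3 regions with 44 to 70 fragments were each shared. At chr11:86514592-86515735 there were 69 ELF3 and 36 NFKB2 fragments, and at chr11:86537261-86538174 there were 70 and 24. The region chr11:86541504-86541975 had 44 and 17, and chr11:86581287-86582997 had 54 and 16. Their ratios ran from 0.267 to 0.470. The highest ratio of the window, 0.757 (0.403 to 1.41), was at chr11:86573804-86574968, with 25 ELF3 and 21 NFKB2 fragments and summits 40 bp apart. That ELF3 summit lay 96.9 kb above the one in the wide region. The remaining 7 shared regions had 14 to 41 ELF3 fragments and 8 to 16 of NFKB2, and 6 ELF3 regions had no NFKB2 region. The shared ones included chr11:86518785-86521869, at 3085 bp the next in ELF3 width after the wide region, with 14 ELF3 and 10 NFKB2 fragments. Also among them was chr11:86543240-86544579, of 1340 bp and 39 ELF3 fragments. NFKB2 there spanned 1116 bp with 16 fragments, summits 988 bp apart and a ratio of 0.370 (0.193 to 0.677).

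Over both windows 20 of 27 ELF3 regions held an NFKB2 region (6 of 7, or 85.7%, at Malat1 and Neat1 and 14 of 20, or 70.0%, at Mir21a and Vmp1), beside 19.7% of the whole ELF3 list. ELF3 regions in the windows were often wide and, at Malat1 and Neat1, mostly tall. Of the 27, 16 were 1 kb or more, against 20.9% of the list. More than the list's median of 22 fragments was found at 17 of 27, and at 32806 of 68319 in the list. By window this was 6 of 7 at Malat1 and Neat1 and 11 of 20 at Mir21a and Vmp1. Width and count both go with NFKB2 in the list. Among regions of 1 kb or more NFKB2 was present at 15 of 16 in the windows and at 42.9% of the list, and among narrower ones at 5 of 11 and 13.5%. Among regions above the median count it was present at 16 of 17 and 34.6%. Among those at or under the median it was present at 4 of 10 in the windows. In the list, 11346 of the 13431 ELF3 regions with NFKB2 were above the median. The list share at or under the median was therefore below the 19.7% of the whole list. The 7 ELF3 regions without NFKB2 were 160 to 1197 bp wide and had 9 to 23 fragments. Neighbouring regions of 1 locus are not independent, so these counts describe 2 loci.

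In the other direction all 25 NFKB2 regions touched an ELF3 region, a share near the 96.8% of the whole NFKB2 list. NFKB2 regions of 1 kb or more numbered 8 of 25, against 11.2% of the list, 6 of them at Malat1 and Neat1. By NFKB2 fragments, 12 of 25 regions were above the list's median of 16, and 5 of 25 had 30 or more, as did 10.3% of the list. Those 5 were the wide regions of the Mir21a and Vmp1 window and of the upper stretch of the Malat1 and Neat1 window, with 60 and 48, and the ones with 39, 37 and 36.

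**Figure D3:**
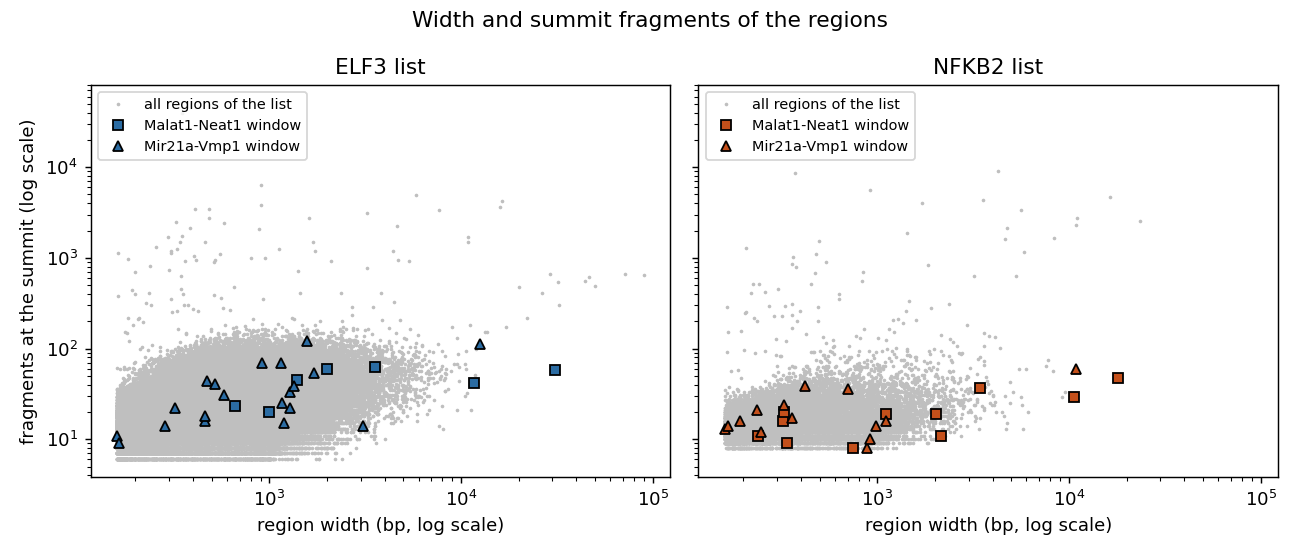
Width (x axis, bp, log scale) and fragments at the summit (y axis, log scale) of every region of the ELF3 list (left) and the NFKB2 list (right), with the regions of both windows as large symbols. The 3 widest symbols of each panel lie at 10 kb or more, while their counts, 42 to 113 for ELF3 and 29 to 60 for NFKB2, fall within the cloud of narrower regions.

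Of the 5 NFKB2 regions of 10 kb or more on autosomes and X (0.0353% of the regions there), 3 were the ones described at these loci. The other ones were chr9:3027149-3038223, with 2733 fragments over a background 1120 times the lowest of the list and 31.0% of its length in ELF3 regions, and chr16:85589496-85600235, with 32 fragments and 85.6%. Of the 26 ELF3 regions of that width 3 were at these loci, and NFKB2 covered 74.0 to 91.5% of their length. It covered a median of 4.08% of the other 23, most of which lay on chromosome 13. The 15 on chromosome 13 had a median of 2.25% (0 to 7.21%), and the 8 on other chromosomes a median of 31.2% (18.3 to 79.3%), the highest being 79.3% at chr5:104580706-104591130 and 77.6% at chr14:20886069-20897944. NFKB2 cover of 50% or more was found at 5 of the 26 (19.2%), of which 3 were at these loci. The lower wide region of the Malat1 and Neat1 window had the highest NFKB2 cover of the 26, and the one in the Mir21a and Vmp1 window the next.

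**Figure D4:**
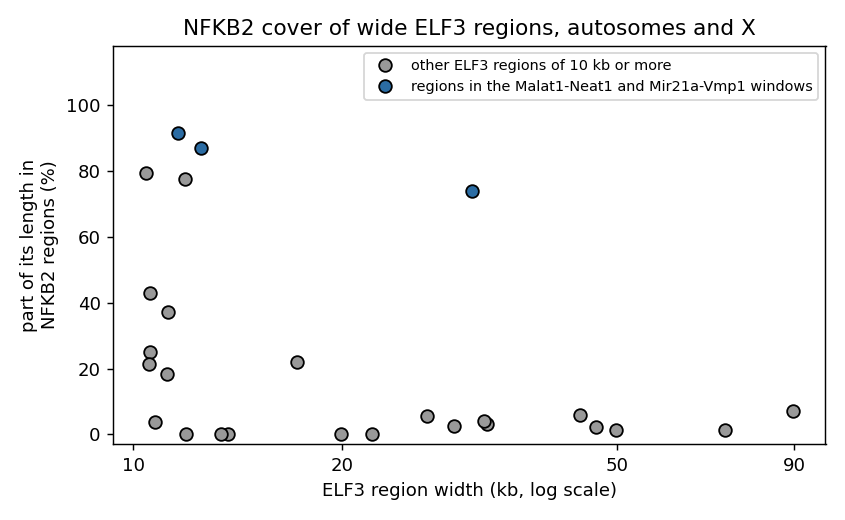
Part of each ELF3 region of 10 kb or more that lay within NFKB2 regions (y axis, %) against its width (x axis, kb, log scale), for the 26 such regions on autosomes and X. The 3 regions of the windows lie at 74.0, 86.9 and 91.5%; 2 of the other 23 lie above 50%.

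Summits of the paired regions often stood apart, most of all in the wide regions. They lay within 100 bp in 12 of 25 pairs, against 75.5% of all pairs. Regions of the whole lists are narrower, with medians of 418 bp for ELF3 and 329 bp for NFKB2, and no share at like width is given. None of the 7 NFKB2 regions inside the wide ELF3 regions had its summit within 100 bp, and 12 of the other 18 did. Of those 7, 5 were set against the 1 listed summit of the upper Malat1 and Neat1 region. They lie 1064 bp or more from each other, so at most 1 of these 5 could have been within 100 bp. The low count in the wide regions is thus partly fixed by the pairing. NFKB2 was above ELF3 after depth scaling in 0 of 25 pairs, and over all pairs in 4.95%; with 25 pairs no difference is read from this. The median ratio was 0.311 at Malat1 and Neat1 and 0.374 at Mir21a and Vmp1, beside 0.365 over all pairs. The interval of 5 of the 25 ratios reached 1. No such share is given over all pairs, so nothing is read from that count.

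**Figure D5:**
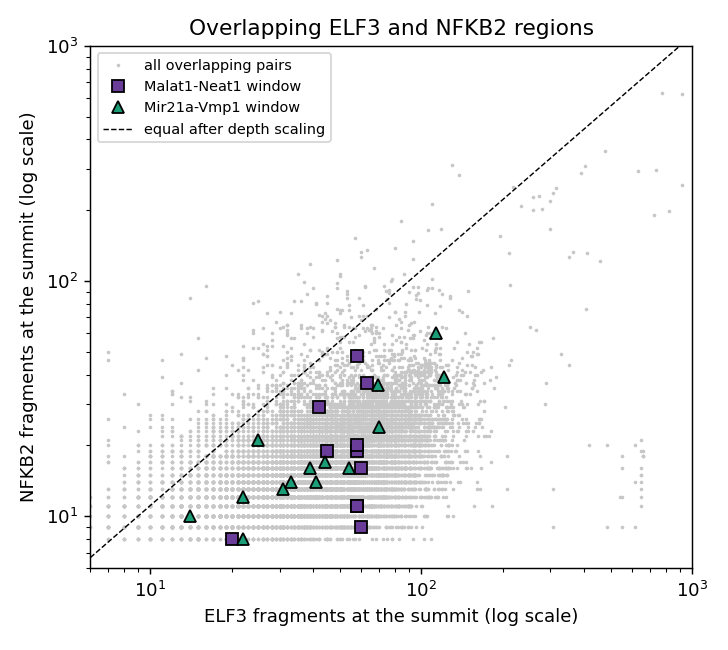
Fragments at the summit of ELF3 (x axis, log scale) and NFKB2 (y axis, log scale) for overlapping regions, all pairs in grey (axes end at 1000 fragments) and the 25 pairs of the windows as symbols. All 25 lie under the dashed line of equal signal after depth scaling.

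The local background, which the caller takes from the control, was raised at some of these regions. It was above its lowest level at 5 of 27 ELF3 and 4 of 25 NFKB2 regions, by 1.53 to 1.67 times. The other 22 of 27 and 21 of 25 were at the lowest level, as were 70.78% of all ELF3 and 70.26% of all NFKB2 regions. A raised background was thus not commoner here than in the lists. Regions with a raised background included both wide NFKB2 regions at Malat1 and Neat1, at 1.53 times, and the lower wide ELF3 region, at 1.62 times. The upper wide ELF3 region and both wide regions of the Mir21a and Vmp1 window were at the lowest level. The part of the background in the widths was not tested.

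The limits of the windows decide which regions count. At Malat1 and Neat1 the nearest regions outside were a pair 1.40 kb (ELF3, 21 fragments) and 1.42 kb (NFKB2, 27 fragments) below the lower limit, and ELF3 3.28 kb and NFKB2 6.04 kb above the upper one. The regions just inside lay 13.5 kb from the lower limit, with 20 ELF3 fragments, and 20.1 kb from the upper. At Mir21a and Vmp1 the nearest ELF3 regions outside were 18987 bp below, with 64 fragments, and 27354 bp above, with 31. The ELF3 regions just inside lay 6.14 and 2.79 kb from the limits, with 15 and 9 fragments.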

How the data were processed

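The submitters' processing notes name MACS2 as the peak caller, and each library has a list of its own, with no pooling stated. Its version and settings, the aligner and the control were not given in the sources used here. Per the file layout, the deposited lists give a score (about 10 times −log10 q), a fold (the ratio of the summit to its local background), −log10 p and −log10 q, and the summit's offset from the region start. Fragments and background at each summit were recovered from the deposited fold and −log10 p under the caller's Poisson model, within 0.01 of −log10 p (scaled up over 100), for 100.0% of regions; a fragment was worth 1.000 and 0.9641 scaled units. The recovery and overlap steps were tested on simulated data. Regions were shared at an overlap of 1 bp. Depth scaling assumed the same genome size in both calls. The plan was to describe in full the widest and highest regions by −log10 q of each list and window, and NFKB2 regions of 1 kb or more. Some of the less wide ones are given only in part. Further regions are named after seeing their values. Members, windows and lists were chosen with earlier results of these data known. Intervals are exact Clopper-Pearson or Poisson at 95%, from scipy 1.17.1; Python was 3.11.15. Alternatives tried were stricter −log10 q, other window limits, joining of regions, other overlap rules and no depth scaling. A further motif search that was planned is not reported here.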

Additional observations from a re-analysis of the deposited data

How the results depend on the processing

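The ratio of NFKB2 to ELF3 at the strongest NFKB2 region stayed within its interval in both windows without depth scaling (0.828 and 0.531) and with the nearest ELF3 summit as partner. At Malat1 and Neat1, NFKB2 regions fell from 11 to 7 with −log10 q of at least 5 and to 6 with at least 10, and joining over 2 kb left 4 ELF3 and 5 NFKB2 regions. The ELF3 cover also in NFKB2 was 70.4% and 69.7% at those −log10 q limits and 76.5% with the window widened by 20 kb on each side. The share of ELF3 regions with NFKB2 in this window, 85.7% as reported, was 57.1% by summits within 100 bp. It was 71.4% and 57.1% at the −log10 q limits of 5 and 10. At Mir21a and Vmp1, joining left 11 ELF3 regions, and 5 NFKB2 regions had −log10 q of 10 or more. The share of ELF3 regions with NFKB2 was 40.0% by summits within 100 bp and 33.3% at −log10 q of 10 or more, and the shared cover was 50.4% and 48.8% at the limits of 5 and 10 and 60.0% with the window narrowed by 10 kb. Stricter limits and joining lower the counts by construction. The window changes act through the regions at its edges. No paired analysis was possible because each antibody has 1 library. Listed regions at the lowest background had at least 6 ELF3 or 8 NFKB2 fragments, so a missing region is not absence of binding.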

Other observations

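Other wide NFKB2 regions, chosen after their values were seen, are given beside the whole list, in which 92.2% of NFKB2 cover lay in ELF3 regions. After the 5 of 10 kb or more, the next in width on autosomes and X were chr12:80153080-80162603 (9524 bp, 33 fragments, 84.6% of its length in ELF3 regions), chr14:20886702-20895917 (9216 bp, 29 fragments, 100%) and chr5:104582777-104591045 (8269 bp, 56 fragments, 100%). The regions chr8:85700995-85708749 (7755 bp, 75 fragments, 100%) and chrX:168773855-168781416 (7562 bp, 64 fragments, 96.2%) followed. No gene was assigned to them.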
